A study of Homo sapiens with 30 samples.

Results

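The nucleotide excision repair genes described here are *XPC*, *DDB2*, *DDB1*, *XPA*, *ERCC2*, *ERCC3*, *ERCC5*, *ERCC6*, *ERCC8* and *UVSSA*. The rule names the genes and uses no measured value, but the list was chosen with earlier results of these data known. All 10 were found among the 39359 genes of the count table. Each of the 10 passed the filter on low counts, as did 21335 genes in all. Gene expression was measured by RNA-seq in H1299, a human lung carcinoma cell line that lacks p53, after transient transfection with a control vector expressing GFP alone (pGFP) or with a vector that expressed GFP and p53. The p53 vectors carried wild type p53, RW mutant p53 (an arginine to tryptophan change in the DNA-binding domain), or wild type p53 with the DNA lesion O6-meG on the template strand at that same codon (p53 O6-meG). Cells of the p53 TM group were given 10 µM O6-bzG, an inhibitor of the repair protein AGT, before transfection with the O6-meG vector. With AGT inhibited, transcriptional mutagenesis (TM), the insertion of a wrong base opposite the lesion, could take place. How much of the lesion remained at 6 or 24 h was not measured here. Per the labels no other group received O6-bzG, and an effect of O6-bzG itself and that of the lesion cannot be told apart in the p53 TM group. GFP-positive cells were sorted 6 or 24 h after transfection, which gave 10 groups of 3 libraries. Both vector genes are driven by tetracycline response promoters, and all groups, pGFP included, share the p53-null background of the line.

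Nucleotide excision repair removes bulky lesions that distort the DNA helix, and is known above all for repair of ultraviolet photoproducts. In its global branch, *XPC* recognises the distortion, and the complex of *DDB1* and *DDB2* binds photoproducts and hands them on to *XPC*. In the transcription-coupled branch, a stalled RNA polymerase is recognised by the proteins of *ERCC6* (CSB) and *ERCC8* (CSA), which are joined by *UVSSA*. Both branches then use TFIIH, whose helicases are encoded by *ERCC2* (XPD) and *ERCC3* (XPB), the damage-verifying protein *XPA*, and the endonuclease encoded by *ERCC5* (XPG). *DDB2* and *XPC* are established targets of p53. O6-meG itself is a small lesion that AGT reverses directly.

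The members lie on 9 chromosomes of hg38. *XPC* occupies chr3:14145147-14178621 on the minus strand, *DDB2* chr11:47214465-47239217 on the plus strand and *DDB1* chr11:61299451-61342596 on the minus strand. *XPA* occupies chr9:97674909-97697340, *ERCC2* chr19:45349837-45370918 and *ERCC3* chr2:127257290-127294166, all on the minus strand, and *ERCC5* chr13:102845831-102875995 on the plus strand. *ERCC6* occupies chr10:49454168-49539538 and *ERCC8* chr5:60866454-60945073 on the minus strand, and *UVSSA* chr4:1345691-1395989 on the plus strand. Sequence is shown for *XPC* and *DDB2*, since these were the members whose changes exceeded 2-fold. The windows searched were those of RefSeq (GRCh38.p14), which run from 250 bases before to 50 bases after an annotated start, and the 10 members have 12 of them. They were searched for the p53 response element consensus, a pair of 10-base units separated by at most 13 bases, which reads the same on both strands. A window of *DDB2* held a complete match at chr11:47214979-47214999, starting at base 6 of the first exon that begins at 47214974 and in its untranslated part, with 1 base between the units. The match is given below with its units in capitals, followed by the 250 bases before that start (chr11:47214724-47214973, plus strand), which lie in an intron of a longer *DDB2* transcript, and by the stretch between the exons of *XPC* and of the divergent gene *LSM3* (chr3:14178622-14178816, minus strand).
DDB2 p53 site: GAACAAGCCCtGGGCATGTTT
DDB2 upstream: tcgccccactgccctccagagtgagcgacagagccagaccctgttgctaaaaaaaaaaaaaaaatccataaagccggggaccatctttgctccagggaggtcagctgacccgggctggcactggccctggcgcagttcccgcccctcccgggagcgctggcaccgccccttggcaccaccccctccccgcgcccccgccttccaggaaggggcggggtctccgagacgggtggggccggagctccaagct
XPC upstream: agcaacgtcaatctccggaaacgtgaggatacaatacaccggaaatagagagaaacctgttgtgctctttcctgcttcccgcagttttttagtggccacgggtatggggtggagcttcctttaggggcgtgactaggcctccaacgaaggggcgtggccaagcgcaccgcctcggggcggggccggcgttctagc
The other 11 member windows, *XPC* included, held no unit of the consensus. Among all 35116 windows, 2329 (6.63%) held at least 1 unit and 10 (0.0285%) held a complete match. A match is a description of the letters in a window, and its absence says nothing about binding elsewhere in a gene.

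Between 32302699 and 71950532 reads were counted on genes per library, with a median of 44424643. CPM are read counts scaled to a common library size after TMM normalization. The p53 target *CDKN1A* had 40.2 ± 5.2 CPM (SD) with pGFP and 257 ± 11 CPM with wild type p53 (n = 3) at 6 h. The epithelial keratin *KRT8* was present at 111 to 182 CPM and *KRT18* at 274 to 724 CPM, whereas *EPCAM* and *CDH1* stayed under 0.4 CPM and the lung lineage marker *NKX2-1* reached at most 1.2 CPM. Summed markers of white blood cells, endothelium and fibroblasts stayed below 2.5 CPM. Of the 6 h libraries, 2 have titles that contradict themselves: replicate 2 of p53 O6-meG is called p53 TM in the opening words of its title, and replicate 2 of p53 TM is called p53 O6-meG. Both were left out of the main fit, so that 28 libraries were fitted and these 2 groups have n = 2 at 6 h, and the main results on them are also given with the pair included as labelled (by the bracketed part of the title and the genotype field) and by the first part of the titles.

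In pGFP cells at 6 h, levels per length spanned from 29.7 ± 1.0 CPM per kb of exon (SD, n = 3) for *ERCC2* and 28.8 ± 0.93 for *DDB1*, which did not differ beyond their spread, to 0.192 ± 0.017 for *ERCC5*. In between came *ERCC3* with 19.3 ± 1.4 CPM per kb, *XPA* with 11.4 ± 0.40, *XPC* with 7.43 ± 0.29, *DDB2* with 5.70 ± 0.27, *UVSSA* with 3.64 ± 0.16, *ERCC6* with 1.43 ± 0.046 and *ERCC8* with 1.16 ± 0.027. These neighbours in the order did not overlap. Length is the union of all exons annotated in GENCODE v44, so that genes with many long transcript variants appear lower. Reads were counted on the exons of GENCODE v27, so counts and lengths come from different annotations, and the order of members depends on these lengths. *ERCC5*, the XPG endonuclease, had the lowest counts of the members, with 1.43 to 2.74 CPM over the 28 libraries, and its changes carry the largest errors. Of its exon bases, 33.0% are shared with the readthrough gene *BIVM-ERCC5* on the same strand. How reads over both genes were counted is not given in the sources used here, so the low level of *ERCC5* is uncertain.

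The first comparison asked what changed with time in cells without p53. Between 6 and 24 h of pGFP, 8 of the 10 members changed (adjusted P below 0.05 by edgeR's quasi-likelihood test, Benjamini-Hochberg over all genes), beside 41.2% of all genes tested. The share was 48.6% in a fit of only the genes with at least 10 counts in every library. The level of 7 members was lower at 24 h, with *XPA* falling by 0.64 on the log2 scale (SE 0.080, adjusted P = 8.31e-07), *UVSSA* by 0.62, *ERCC3* by 0.57, *ERCC2* by 0.48, *DDB2* by 0.40, *ERCC8* by 0.33 and *DDB1* by 0.17. *ERCC6* was the exception and rose by 0.29 (SE 0.078, adjusted P = 0.00407), from 31.8, 33.5 and 33.8 CPM at 6 h to 44.1, 39.4 and 37.7 CPM at 24 h, without overlap. The median change of the members was −0.37, beside 0.0032 for all genes. The call for *DDB1* was lost without replicate 1 or 3 of the 24 h libraries or replicate 1 or 2 of the 6 h libraries (adjusted P from 0.0541 to 0.115), and in 5 other settings, and that for *DDB2* with the pair included as labelled (adjusted P = 0.0924). The summed epithelial markers were also lower at 24 h, with 424 to 523 CPM against 715 to 801 CPM, and their part in these changes was not tested. Time after transfection and any difference in handling between the 6 and 24 h cultures cannot be told apart.

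**Figure D1:**
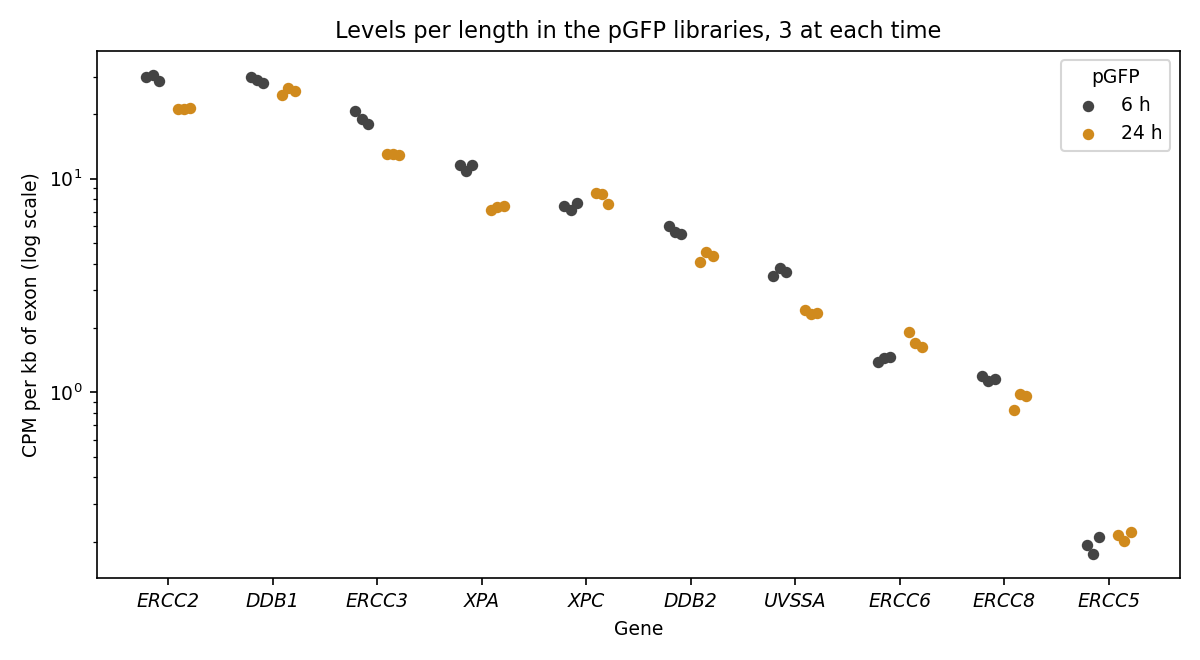
CPM per kb of exon (log scale) of the 10 members in the pGFP libraries at 6 h (black) and 24 h (orange), each point 1 library. The members run from *ERCC2* at 29.7 to *ERCC5* at 0.192 CPM per kb at 6 h, and the 24 h points lie lower for *XPA*, *UVSSA*, *ERCC3*, *ERCC2* and *DDB2* and higher for *ERCC6*.

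The comparison with pGFP asked which members responded to each form of p53. At 6 h, wild type p53 changed 2 of the 10 members, *XPC* and *DDB2*, both upwards, beside 10.3% of all genes tested. *XPC*, the sensor of helix distortion, had 34.6, 33.0 and 35.7 CPM in the 3 pGFP libraries and 80.9, 75.2 and 81.8 CPM with wild type p53. All wild type libraries thus lay above all pGFP libraries, and the log2 fold change was 1.20 (SE 0.091, adjusted P = 4.53e-10). *DDB2*, the photoproduct-binding subunit, had 29.0, 27.2 and 26.6 CPM with pGFP and 88.9, 85.4 and 91.3 CPM with wild type p53, again without overlap, a log2 fold change of 1.68 (SE 0.10, adjusted P = 8.64e-12). Levels are shares of the RNA of the sorted cells, and a response in fewer cells cannot be told apart from a smaller response per cell. With RW mutant p53 the levels stayed within or next to those of pGFP, at 36.7, 34.8 and 36.7 CPM for *XPC* and 30.9, 27.4 and 27.6 CPM for *DDB2*. RW mutant p53 changed 0 of the 10 members at either time by edgeR, beside 0.00469% of all genes tested (1 gene) at 6 h and the same at 24 h. DESeq2 also called 0 at both times, and an unadjusted P under 0.05 was reached by 0 members at 6 h (1.02% of all genes) and by 2 at 24 h (0.975% of all genes), namely *XPA* with 0.18 and *ERCC5* with −0.37 on the log2 scale, both with an adjusted P of 1.

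With p53 O6-meG at 6 h, where AGT was active, *XPC* had 76.4 and 74.7 CPM and *DDB2* 90.9 and 88.9 CPM in the 2 libraries of the main fit. These values were all above pGFP, with log2 fold changes of 1.13 (SE 0.099, adjusted P = 1.08e-08) and 1.70 (SE 0.11, adjusted P = 3.5e-11), and 3 of the 10 members were called beside 4.85% of all genes tested. In p53 TM cells at 6 h the same genes were much lower, *XPC* with 39.3 and 46.4 CPM and *DDB2* with 46.9 and 53.5 CPM. *DDB2* was still above pGFP, by 0.86 on the log2 scale (SE 0.11, adjusted P = 0.000104), and was the only one of the 10 members called, beside 0.202% of all genes tested. *XPC* had a log2 fold change of 0.32 against pGFP that did not pass the test (SE 0.10, unadjusted P = 0.00417, adjusted P = 0.442), although both of its libraries lay above all 3 pGFP libraries. Taking the difference between the means of wild type p53 and pGFP as 100%, the 2 p53 TM libraries kept 10.9% and 26.7% of the rise of *XPC* and 31.7% and 42.6% of that of *DDB2*, whereas the p53 O6-meG libraries kept 93.5% and 89.7% for *XPC* and 104% and 101% for *DDB2*. All of these comparisons share the same pGFP libraries.

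Compared directly with wild type p53 at 6 h, p53 TM had lower levels of 3 of the 10 members, beside 10.9% of all genes tested. *XPC* had a log2 fold change of −0.89 (SE 0.10, adjusted P = 1.03e-06), and *DDB2* one of −0.82 (SE 0.11, adjusted P = 1.13e-05), in both cases without overlap between libraries. The third was *UVSSA*, described further on. Against p53 O6-meG, the same vector without O6-bzG, 2 of the 10 were lower, beside 4.10% of all genes tested. The log2 fold changes were −0.82 for *XPC* (adjusted P = 2.42e-05) and −0.84 for *DDB2* (adjusted P = 5.44e-05). Between p53 O6-meG and wild type p53, 0 of the 10 differed at 6 h by edgeR or by DESeq2, beside 0% of all genes tested, and 1 (*UVSSA*, −0.39) had an unadjusted P under 0.05, as did 9.99% of all genes. The 95% interval of that difference ran from −0.28 to 0.14 for *XPC* and from −0.20 to 0.25 for *DDB2*.

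The pair of libraries with conflicting titles decided whether these p53 TM differences passed the test. The library labelled p53 O6-meG, replicate 2, had 41.7 CPM of *XPC* and 50.7 CPM of *DDB2*, whereas the library labelled p53 TM, replicate 2, had 83.2 and 89.0 CPM. Of *CDKN1A* the former had 50.4 CPM and the latter 251 CPM, beside 270 and 262 CPM in the fitted p53 O6-meG libraries and 66.2 and 58.2 CPM in the fitted p53 TM libraries at 6 h. With both included as labelled, p53 TM against wild type p53 gave −0.49 for *XPC* (adjusted P = 0.181) and −0.49 for *DDB2* (adjusted P = 0.163), and 0 of the 10 members were called in this comparison, beside 0.0766% of all genes, and against p53 O6-meG, beside 0%. Grouped instead by how their titles begin, they gave −0.90 for *XPC* (adjusted P = 1.9e-08) and −0.81 for *DDB2* (adjusted P = 3.04e-07). By the same placement p53 TM against p53 O6-meG gave −0.88 for *XPC* (adjusted P = 5.56e-08), −0.83 for *DDB2* (adjusted P = 4.3e-07) and 0.29 for *ERCC6* (adjusted P = 0.0119), beside 8.30% of all genes called. Against pGFP the rise with p53 O6-meG was called under both placements, with 0.90 and 1.18 for *XPC* and 1.48 and 1.70 for *DDB2*, as was the rise of *DDB2* with p53 TM, with 1.19 and 0.87. *XPC* with p53 TM against pGFP was not called under either placement, with 0.71 (adjusted P = 0.257) and 0.30 (adjusted P = 0.208).

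**Figure D2:**
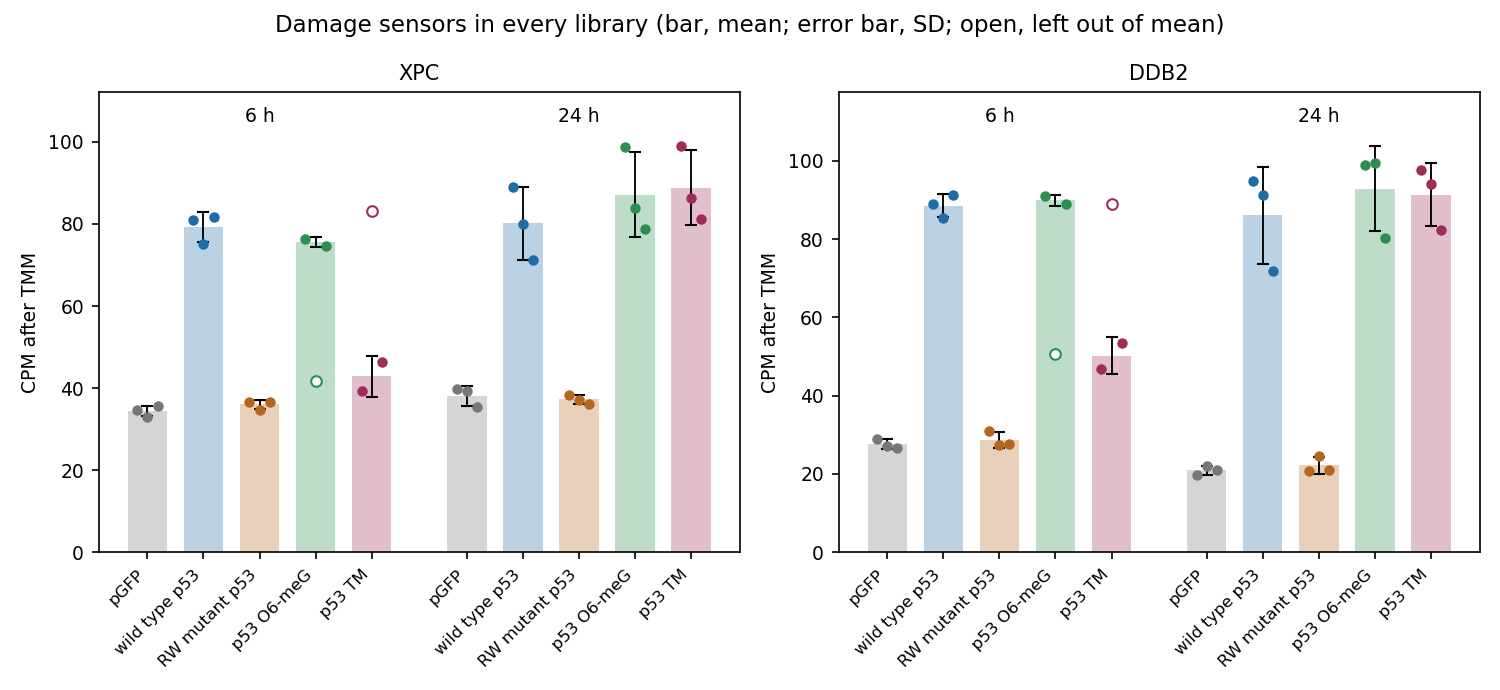
CPM after TMM of *XPC* and *DDB2* in each library (points) of the 10 groups, with the mean (bar) and SD (error bar) of the libraries in the main fit, and the 2 libraries with conflicting titles as open points. At 6 h the closed p53 TM points lie between pGFP and wild type p53, at 39.3 and 46.4 CPM for *XPC*, and at 24 h they lie within or above the range of wild type p53.

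At 24 h, *XPC* and *DDB2* were high with p53 TM too, and its libraries overlapped those of wild type p53. *XPC* had 39.9, 39.2 and 35.3 CPM with pGFP, 89.1, 80.1 and 71.3 with wild type p53, 98.7, 83.9 and 78.9 with p53 O6-meG, and 98.9, 86.3 and 81.2 with p53 TM. *DDB2* had 19.6, 22.1 and 21.0 CPM with pGFP, 94.9, 91.3 and 71.9 with wild type p53, 98.8, 99.4 and 80.4 with p53 O6-meG, and 97.6, 94.0 and 82.3 with p53 TM. Every library of these 3 p53 groups was above every pGFP library, while RW mutant p53 stayed at 36.1 to 38.4 CPM for *XPC* and 20.8 to 24.6 CPM for *DDB2*. Against pGFP, the log2 fold changes were 1.07 with wild type p53 (SE 0.091), 1.19 with p53 O6-meG and 1.22 with p53 TM for *XPC*, and 2.04 (SE 0.10), 2.15 and 2.13 for *DDB2*, the largest adjusted P of these being 9.31e-10. Against wild type p53, p53 TM differed by 0.15 for *XPC* (95% interval −0.035 to 0.33, adjusted P = 0.266) and by 0.086 for *DDB2* (−0.12 to 0.29, adjusted P = 0.604), with overlapping libraries. With the replicate number as a block, which pairs the libraries at 24 h, *XPC* was called higher with p53 TM than with wild type p53 (0.15, adjusted P = 0.0299). The change of this difference from 6 to 24 h was itself tested. It was 1.03 for *XPC* (SE 0.14, adjusted P = 5.38e-05) and 0.90 for *DDB2* (SE 0.15, adjusted P = 0.00085), and these were the 2 members called among the 10, beside 1.45% of all genes tested. By the first part of the titles it was 1.05 and 0.90 (adjusted P = 5.25e-06 and 0.000109), and as labelled 0.64 and 0.57 (adjusted P = 0.443 and 0.49).

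*DDB1*, the partner of *DDB2* and an adaptor of the CUL4 ubiquitin ligase, changed less. It had 461, 448 and 432 CPM with pGFP and 515, 502 and 480 CPM with wild type p53 at 6 h, which did not overlap but did not pass the test (log2 fold change 0.16, SE 0.061, adjusted P = 0.115). At 24 h, the levels were 382, 410 and 400 CPM with pGFP and 506, 539 and 481 CPM with wild type p53, a log2 fold change of 0.36 (SE 0.061, adjusted P = 4.2e-05). With p53 O6-meG they reached 520, 552 and 503 CPM (0.40, adjusted P = 1.07e-05) and with p53 TM 462, 481 and 455 CPM (0.23, adjusted P = 0.013), all above pGFP. The last call was lost without replicate 1 of pGFP or replicate 2 of p53 TM (adjusted P of 0.0708 and 0.0649), with the size factors of DESeq2 (adjusted P = 0.0772), in a fit of only the groups compared (0.152) and with every gene of at least 1 count (0.305). The p53 TM libraries lay below those of p53 O6-meG, by −0.17 on the log2 scale, which did not pass the test (adjusted P = 0.0734) but passed in 5 of 8 other settings, the block among them (adjusted P = 0.00295). Against wild type p53 the difference was −0.13 (adjusted P = 0.153, and 0.0177 with the block).

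At 24 h, wild type p53 changed 8 of the 10 members, 6 upwards and 2 downwards, beside 35.0% of all genes tested (20.5% of all genes upwards and 14.5% downwards). In a fit of only the genes with at least 10 counts in every library, the share of genes called was 42.4%. The median log2 fold change of the members was 0.25, beside 0.0081 for all genes. p53 O6-meG changed 6 of the 10, 5 of them upwards, beside 29.5% of all genes, and p53 TM changed 4, all upwards, beside 10.7% of all genes. *XPC* and *DDB2* were the only members with a called change of at least 2-fold against pGFP with any vector, and of all genes 4.39% rose that much with wild type p53 at 6 h and 9.22% at 24 h. Among the core factors, *ERCC3*, the XPB helicase of TFIIH, had 110, 110 and 109 CPM with pGFP and 139, 127 and 126 CPM with wild type p53 (log2 fold change 0.26, SE 0.072, adjusted P = 0.00602). It had 138, 122 and 130 CPM with p53 O6-meG (0.25, adjusted P = 0.0108) and 129, 112 and 117 CPM with p53 TM (0.13, adjusted P = 0.347). Leaving out replicate 1 of wild type p53, its highest library, raised the adjusted P of the wild type effect to 0.0959, and leaving out replicate 1 of p53 O6-meG raised that of p53 O6-meG to 0.0635. With every gene of at least 1 count these were 0.15 and 0.192, and a fit of only the groups compared gave 0.0552 for p53 O6-meG. *ERCC2*, the XPD helicase of the same complex, moved the other way with wild type p53, from 147, 146 and 149 CPM to 115, 130 and 138 CPM (−0.21, SE 0.060, adjusted P = 0.0085), with no overlap. With p53 TM it stayed at 144, 152 and 145 CPM, which was higher than with wild type p53 by 0.20 (SE 0.060, adjusted P = 0.0176). This last call was lost without replicate 1 of wild type p53 (adjusted P = 0.0911) or replicate 2 of p53 TM (adjusted P = 0.0869), and with every gene of at least 1 count (0.0628). A fit of only the groups compared lost both calls of *ERCC2* (adjusted P = 0.0589 against pGFP and 0.157 against wild type p53).

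*XPA*, which checks that the opened strand carries damage, had 12.9, 13.4 and 13.5 CPM with pGFP, 15.8, 15.8 and 15.3 CPM with wild type p53 and 14.7, 17.0 and 16.5 CPM with p53 TM at 24 h. Both groups lay above pGFP, with log2 fold changes of 0.24 (SE 0.080, adjusted P = 0.0225) and 0.28 (SE 0.080, adjusted P = 0.0233). RW mutant p53 also lay above pGFP, with 13.7, 16.1 and 15.2 CPM (0.18, adjusted P = 1), and p53 O6-meG gave 0.19 (adjusted P = 0.0804, and 0.0216 with the block). The wild type call was lost without replicate 1 of pGFP or replicate 1 or 2 of wild type p53 (adjusted P of 0.0719, 0.123 and 0.0558). The p53 TM call was lost in 5 of 6 runs that each left out 1 library, namely any pGFP library or replicate 2 or 3 of p53 TM (adjusted P from 0.0533 to 0.116). It was also lost with the size factors of DESeq2 (0.0853), by the Wald test of DESeq2 (0.0535) and, like the wild type call, with every gene of at least 1 count (adjusted P = 0.305, and 0.401 for wild type p53) and in a fit of only the groups compared (0.247 and 0.11). *ERCC5* was not called with any vector at either time, its libraries ranging from 2.23 to 2.45 CPM with pGFP and from 2.53 to 2.64 CPM with wild type p53 at 24 h.

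Of the transcription-coupled factors, *ERCC6*, the CSB protein that binds stalled RNA polymerase, fell with wild type p53 at 24 h and lay near pGFP with p53 TM. At 24 h it had 44.1, 39.4 and 37.7 CPM with pGFP, 27.1, 29.6 and 26.9 CPM with wild type p53, 30.6, 33.4 and 28.6 CPM with p53 O6-meG, and 42.1, 43.6 and 39.4 CPM with p53 TM. Wild type and O6-meG libraries lay wholly below those of pGFP, with log2 fold changes of −0.54 (SE 0.078, adjusted P = 5.05e-06) and −0.39 (SE 0.078, adjusted P = 0.00037), whereas those of p53 TM and of RW mutant p53 (41.3, 39.9 and 37.2 CPM) overlapped with pGFP (0.045 and −0.034). p53 TM was higher than wild type p53 by 0.58 (SE 0.078, adjusted P = 1.29e-05) and higher than p53 O6-meG by 0.43 (SE 0.078, adjusted P = 0.000915), with no overlap in either case. In the main fit, which has no replicate block, *ERCC6* and *ERCC2* were the 2 of the 10 members called between p53 TM and wild type p53 at 24 h. This stood beside 21.2% of all genes tested. *ERCC6* was the only one called against p53 O6-meG, beside 10.0%. With the block, which pairs the libraries at 24 h, 6 were called against wild type p53, beside 37.0% of all genes. *XPC*, *DDB1* and *UVSSA* were among these 6, so their missing calls in the main fit depend on leaving the pairing out. A fit of only the 2 groups raised the adjusted P of *ERCC6* against p53 O6-meG to 0.057.

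At 6 h, *ERCC6* had 31.8, 33.5 and 33.8 CPM with pGFP and 28.6, 28.6 and 29.9 CPM with wild type p53, which did not overlap but did not pass the test (−0.19, SE 0.078, adjusted P = 0.159). The 2 p53 O6-meG libraries had 26.8 and 26.97 CPM, just past the threshold (−0.30, SE 0.088, adjusted P = 0.0495). That call was lost when any 1 of the 5 libraries was left out (adjusted P from 0.0649 to 0.228) and with the pair included as labelled (−0.18, adjusted P = 0.439) or every gene of at least 1 count (0.14), and was kept by the first part of the titles (−0.28, adjusted P = 0.019). p53 TM had 30.3 and 36.2 CPM, close to pGFP (0.0095, adjusted P = 1) and above wild type p53 by 0.20 (adjusted P = 0.179), and the left-out libraries had 33.6 CPM (labelled p53 O6-meG) and 27.98 CPM (labelled p53 TM). The fall of *ERCC6* with wild type p53 differed by −0.35 between 6 and 24 h, which did not pass the test (SE 0.11, adjusted P = 0.0572).

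*UVSSA*, which brings TFIIH to the stalled polymerase, rose with wild type p53 at 24 h from 41.2, 39.5 and 39.7 CPM to 57.9, 52.9 and 55.1 CPM (0.46, SE 0.097, adjusted P = 0.000436), and with p53 O6-meG to 56.8, 52.0 and 46.6 CPM (0.37, SE 0.097, adjusted P = 0.00476). With p53 TM it had 52.1, 45.7 and 42.9 CPM, all above pGFP, but the difference did not pass the test (0.22, adjusted P = 0.169). It lay below wild type p53 by −0.24 (adjusted P = 0.08, and 0.019 with the block). At 6 h, in contrast, the wild type libraries had 66.9, 63.0 and 64.5 CPM against 59.0, 64.4 and 61.6 CPM with pGFP, with overlap. Both groups given the O6-meG vector lay below all pGFP libraries, with 53.7 and 45.1 CPM for p53 O6-meG (−0.32, adjusted P = 0.102) and 45.5 and 55.1 CPM for p53 TM (−0.29, adjusted P = 0.644), which did not pass the test. Replicate 2 of RW mutant p53, with 50.4 CPM, also lay below all pGFP libraries. p53 TM differed from wild type p53 by −0.36 (SE 0.11, adjusted P = 0.027), which was lost as labelled (−0.29, adjusted P = 0.136) and kept by the first part of the titles (−0.42, adjusted P = 0.00342). It was also lost without replicate 1 or 3 of wild type p53 or replicate 1 of p53 TM (adjusted P of 0.0982, 0.0614 and 0.455) and with the size factors of DESeq2 (adjusted P = 0.0529). *ERCC8*, the CSA protein, was not called with any vector and ranged from 27.97 to 32.7 CPM at 6 h and from 20.2 to 26.3 CPM at 24 h over the libraries fitted.

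**Figure D3:**
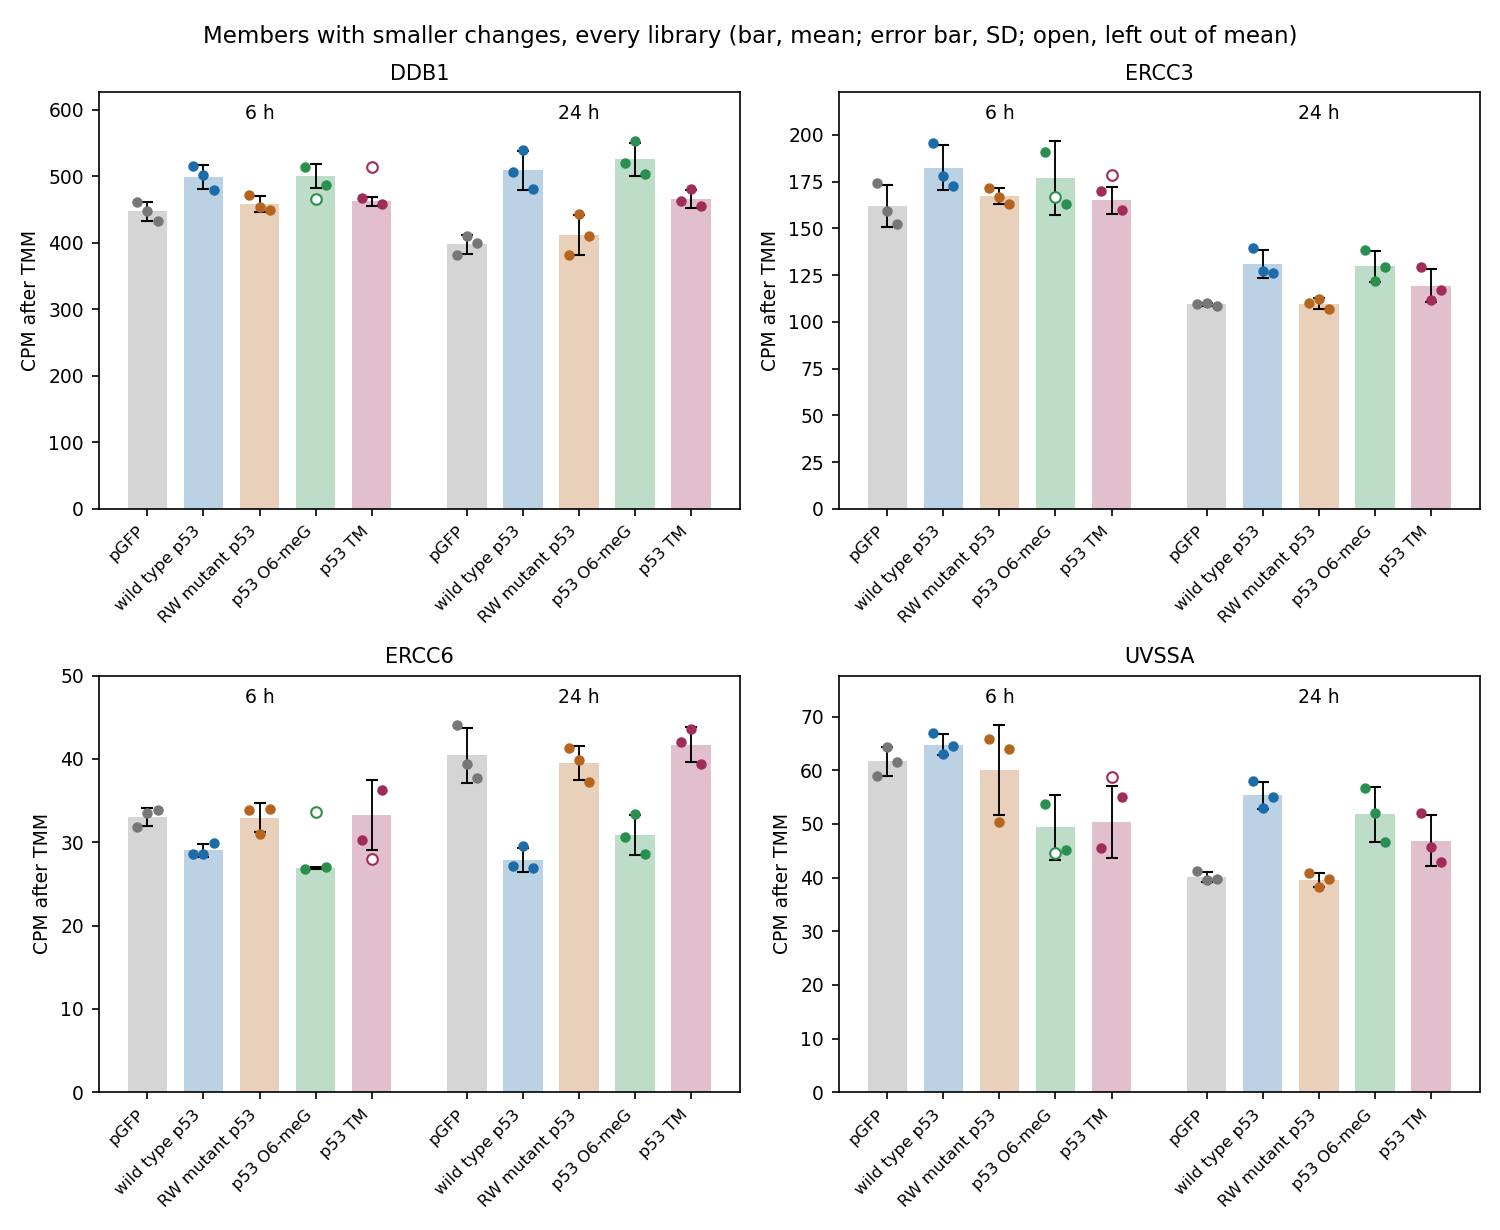
CPM after TMM of *DDB1*, *ERCC3*, *ERCC6* and *UVSSA* in each library (points), with the mean (bar) and SD (error bar) of the libraries in the main fit, and the 2 libraries with conflicting titles as open points. At 24 h *ERCC6* lies at 26.9 to 29.6 CPM with wild type p53 and at 39.4 to 43.6 CPM with p53 TM, and the wild type libraries of *UVSSA* lie above all libraries of pGFP.

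Whether the effect of wild type p53 changed from 6 to 24 h was tested for each member. None of the 10 passed (0 called by edgeR, beside 6.51% of all genes tested, and 2 by DESeq2, *ERCC6* and *UVSSA*, beside 10.3%), although 5 had an unadjusted P under 0.05 (18.5% of all genes). With the block within each time, 5 were called, beside 18.3% of all genes: *DDB2* with 0.35 (adjusted P = 0.0178), *DDB1* with 0.20 (0.0173), *ERCC2* with −0.21 (0.0381), *ERCC6* with −0.35 (0.00487) and *UVSSA* with 0.39 (0.0155). For *XPC* the difference was −0.13 (95% interval −0.39 to 0.13, adjusted P = 0.677). Between p53 O6-meG and wild type p53 at 24 h, 0 of the 10 differed by edgeR or by DESeq2, beside 0.00937% of all genes tested, and 0 had an unadjusted P under 0.05 (4.96% of all genes).

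**Figure D4:**
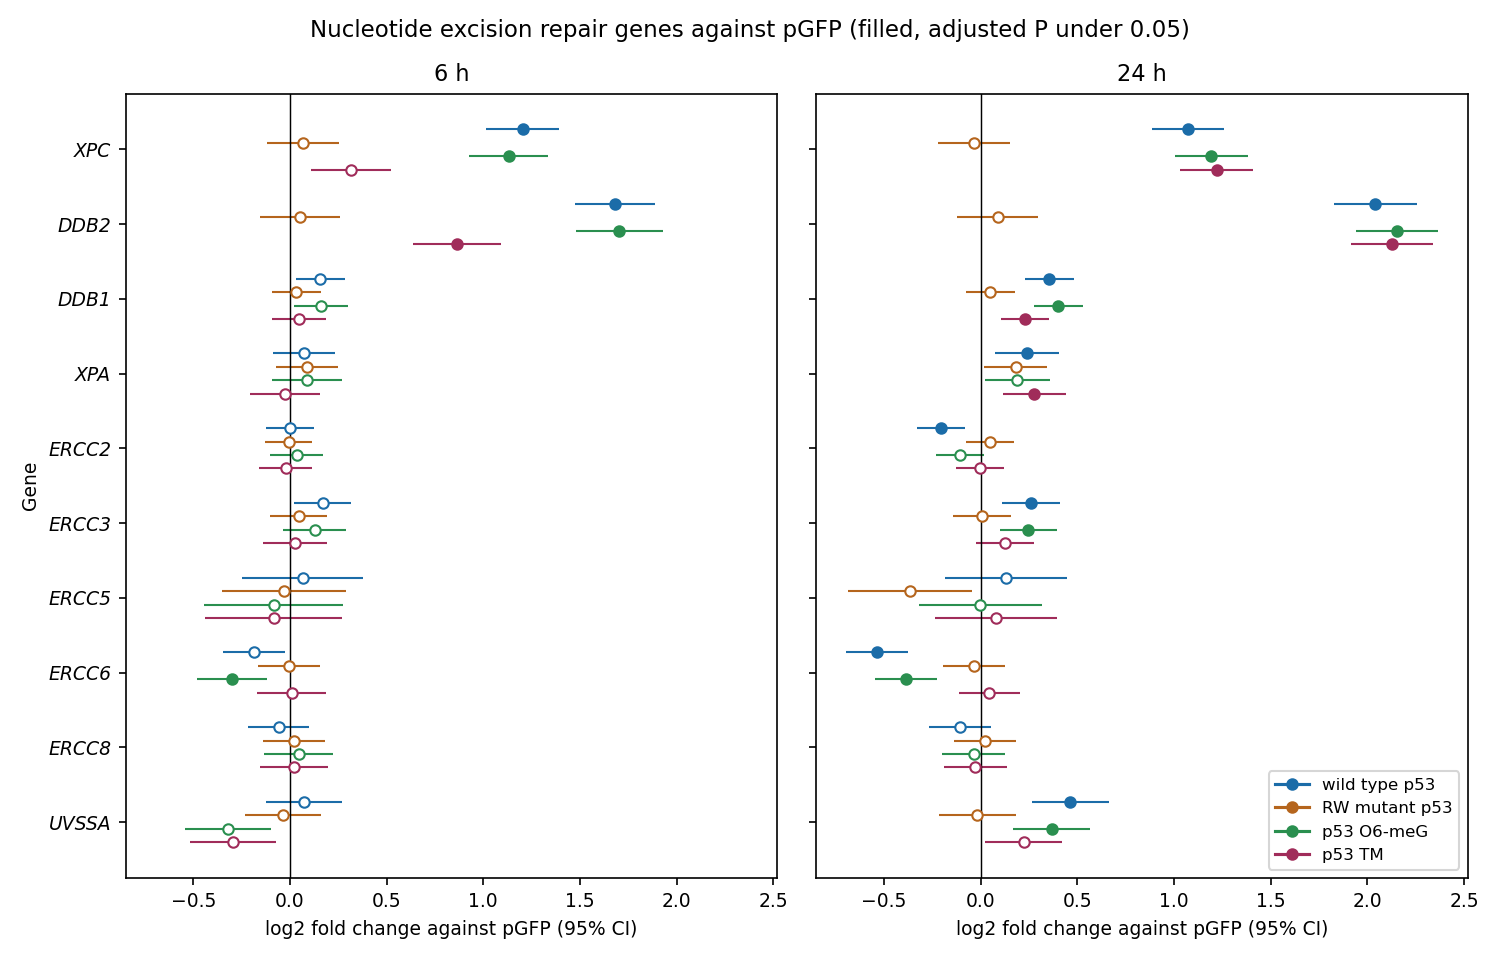
Log2 fold change against pGFP (point) with its 95% confidence interval (line) for the 10 members at 6 h and 24 h with each p53 vector, filled where the adjusted P was under 0.05. *XPC* and *DDB2* stand apart at 1.07 to 2.15 with wild type p53 and p53 O6-meG, p53 TM lies lower for both at 6 h only, and RW mutant p53 has no filled point.

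Over the 28 libraries, *XPC* and *DDB2* varied together (Pearson's r = 0.953 of log2 CPM). The genes whose level followed *XPC* most closely were *FDXR* (r = 0.991), *MDM2* (0.988) and *ACER2* (0.988), and those nearest to *DDB2* were *TNFRSF10B* (0.993), *BLOC1S2* (0.976) and *FAS* (0.976). These are descriptions over libraries that share vector, time and normalization. *MDM2*, which encodes the ubiquitin ligase of p53, had 194 ± 14 CPM with pGFP, 1305 ± 61 with wild type p53 (SD, n = 3) and 319 ± 44 with p53 TM (n = 2) at 6 h, and 1598 ± 312 and 1444 ± 354 CPM with the latter 2 at 24 h. *FAS*, a death receptor, had 13.1 ± 0.85 CPM with pGFP, 65.2 ± 1.1 CPM after wild type p53 and 16.8 ± 0.11 CPM in p53 TM cells at 6 h. Among the members, *ERCC6* ran against *DDB1* (r = −0.684) and *ERCC3* (−0.66), and *ERCC2* with *ERCC8* (0.946).

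Another 42 genes of the pathway (lesion recognition, TFIIH, RPA, the *ERCC1* nuclease, and the polymerases, clamp loader and ligases that fill the gap) were all tested. With wild type p53 at 6 h, 3 rose and 1 fell (9.52%, beside 10.3% of all genes), and at 24 h 6 rose and 12 fell (42.9%, beside 35.0%). At 24 h the list held more falls than rises, with a median of −0.068 on the log2 scale, whereas the median of the 10 members was 0.25. *PCNA*, the sliding clamp of the polymerases and a target of p53, rose at both times, by 0.57 at 6 h (258 ± 6.9 to 382 ± 29 CPM, adjusted P = 0.000127) and by 0.78 at 24 h (173 ± 17 to 298 ± 15 CPM, adjusted P = 4.08e-07). The ligase *LIG1* rose by 0.51 at 6 h (adjusted P = 0.000104), and *USP7*, the protease that acts with *UVSSA*, by 0.33 at 6 h and 0.66 at 24 h (adjusted P = 0.00149 and 3.29e-08). *POLD3*, a subunit of polymerase delta, fell at 24 h by 0.70 on the log2 scale (43.5 ± 0.38 to 26.8 ± 0.95 CPM, adjusted P = 3.83e-08). Between p53 TM and wild type p53, 1 of the 42 was higher and 2 lower at 6 h (7.14%, beside 10.9% of all genes), and 7 were higher and 1 lower at 24 h (19.0%, beside 21.2% of all genes). From 6 to 24 h of pGFP, 27 fell and 1 rose (66.7%, beside 41.2%). RW mutant p53 changed 0 of the 42 at either time by edgeR, beside 0.00469% of all genes at each time. Under an unadjusted P of 0.05 were 0 of the 42, beside 1.02% of all genes at 6 h and 0.975% at 24 h.

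Whether strand was used in counting is not given in the sources used here, so reads of genes that overlap on opposite strands may have been mixed. Of the exon bases of *XPC*, 24.6% overlap the antisense gene *XPC-AS1*, which was counted at no more than 1.28 CPM in any library of the fit. *LSM3*, whose start lies 196 bases from that of *XPC* on the opposite strand, was not called with wild type p53 (0.10 at 6 h, adjusted P = 0.632, and −0.036 at 24 h, adjusted P = 0.787). *KLC3* overlaps 7.71% of the exon bases of *ERCC2* from the opposite strand and rose at 24 h with wild type p53, from 9.81 to 24.1 CPM on average (1.30, adjusted P = 1.69e-05), while *ERCC2* fell, and with p53 TM it was lower than with wild type p53 (−0.61, adjusted P = 0.033), while *ERCC2* was higher. For *ERCC5*, 33.0% of the exon bases are shared with the readthrough gene *BIVM-ERCC5* on the same strand, and its low counts are uncertain for that reason.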

How the data were processed

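RNA of sorted H1299 cells, 3 biological replicates of each of 10 groups, was sequenced after ribosomal RNA depletion with a stranded kit. Per the labels and the methods, the authors aligned reads to hg38 with STAR 2.5.3a, used featureCounts (Subread 1.5.2) with GENCODE v27 for counting, and deposited raw read counts per gene, without normalization. The strand setting is not given in the sources used here. A deposited table of normalized values was not used. Coordinates are those of GENCODE v44, in which 38904 of 39359 counted genes were found. Columns were tied to samples by name.

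Counts were filtered by filterByExpr (21335 genes kept), normalized by TMM and fitted over 28 libraries with edgeR 4.0.16 in R 4.3.3. Groups were compared by the quasi-likelihood test with Benjamini-Hochberg adjustment over all genes, and a call is an adjusted P under 0.05 with no fold limit. The authors used DESeq2 1.20, and DESeq2 1.42.0 is an alternative here, as are its size factors, other filters, a replicate block, a fit of only the groups compared, both placements of the conflicting libraries, and leaving out each library. The members and gene lists were chosen with earlier results of these data known. Genes named beyond the members are *CDKN1A* as a check (1 other check is not reported here), the 3 smallest P values among called pathway genes at each time, neighbours that share exons or a start region, and the 3 genes most correlated with *XPC* and with *DDB2*.

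Replicate numbers were checked for pairing by the correlation of deviations from group means. At 24 h all 30 same-number pairs were above 0.1 (0.182 to 0.612), against 9 of 60 pairs with different numbers, so the numbers pair the libraries. At 6 h 5 of 9 same-number pairs were above 0.1, against 1 of 18 pairs with different numbers. No library repeated another of its group (26 pairs, chi-square per degree of freedom 6.13 to 47.8). On simulated counts for wild type p53 against pGFP at 24 h (21145 genes), 26% of genes changed 1.25-fold were recovered, 68% at 1.5-fold, 92% at 2-fold and 100% at 3-fold (50 genes each). Of the 155 genes called there, 12 were unchanged ones. The simulation had no pairing and changed far fewer genes than the 35.0% called in the data, so recovery in the data may differ.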

Additional observations from a re-analysis of the deposited data

Results flagged for a closer look

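In the main fit, the effect of p53 TM on *XPC* and *DDB2* differed between the times. The log2 difference between p53 TM and wild type p53 changed by 1.03 (*XPC*) and 0.90 (*DDB2*) from 6 to 24 h, by an interaction test. With the conflicting pair included as labelled, neither change passed this test, whereas by the first part of the titles both did. Both libraries left out for their conflicting titles held signal above the highest pGFP library at 6 h (35.7 CPM of *XPC* and 29.0 CPM of *DDB2*). The library labelled p53 O6-meG, replicate 2, had 41.7 CPM of *XPC* and 50.7 CPM of *DDB2*, and the library labelled p53 TM, replicate 2, had 83.2 and 89.0 CPM. Groups of 3 libraries are too small for a test of single distant libraries, and none was run.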

How the results depend on the processing

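Counts of called members moved by more than 1.5 times in these cases. With the replicate block within each time, wild type p53 against pGFP at 6 h gave 5 (2 without it), p53 O6-meG against pGFP at 6 h 5 (3), p53 TM against pGFP at 6 h 2 (1), p53 O6-meG against wild type p53 at 6 h 1 (0), p53 TM against wild type p53 at 24 h 6 (2), p53 TM against p53 O6-meG at 24 h 2 (1), and the change of the wild type effect with time 5 (0). The share of all genes called rose with the block as well. In the same order it was 18.8% (10.3% without it), 17.2% (4.85%), 1.54% (0.202%), 6.42% (0%), 37.0% (21.2%), 25.3% (10.0%) and 18.3% (6.51%). The block changed no other count by that much. At 6 h the numbers are not shown to pair the libraries. For pGFP at 24 h against 6 h the block sets replicate 1 at 24 h against replicate 3 at 6 h, and was not used. With the conflicting pair as labelled, p53 TM against wild type p53 and against p53 O6-meG at 6 h, and the change of the former with time, gave 0 (3, 2 and 2). Of all genes, 0.0766%, 0% and 0.0671% were called there (10.9%, 4.10% and 1.45% in the main fit). By the first part of the titles, p53 TM against p53 O6-meG at 24 h gave 2 (beside 11.4% of all genes) and the change of the wild type effect 1 (beside 7.61%). For p53 TM against pGFP at 24 h (4), size factors of DESeq2, every gene with at least 1 count and a fit of only the groups compared each gave 2. Of all genes, 9.91%, 4.47% and 6.34% were called there (10.7% in the main fit). For p53 TM against wild type p53 at 24 h (2), every gene and only the groups compared each gave 1, and DESeq2's Wald test 4. Of all genes, 9.55%, 9.31% and 18.9% were called there (21.2% in the main fit). For p53 TM against p53 O6-meG at 24 h (1), size factors of DESeq2, at least 10 counts in every library and the Wald test each gave 2, and only the groups compared 0. Of all genes, 10.2%, 13.5%, 13.3% and 1.29% were called there (10.0% in the main fit). For the change of the wild type effect (0), only the groups compared gave 1 (beside 7.86% of all genes) and the Wald test 2 (beside 10.3%). Leaving out 1 library gave 2 to 4 for p53 TM against pGFP at 24 h (lowest without replicate 1 of pGFP or replicate 2 of p53 TM), 1 to 3 for p53 TM against wild type p53 at 24 h (lowest without replicate 1 of wild type p53 or replicate 2 of p53 TM) and 0 to 1 for the change of the wild type effect (1 without replicate 3 of pGFP or of wild type p53 at 24 h). The share of all genes called in the runs without 1 library is not given here. The cause of all these moves was not tested. No call reversed its direction. The median of all genes moved by at most 0.0778 (log2) in the settings that kept every fitted library. With n = 2, the p53 O6-meG and p53 TM groups at 6 h borrow the spread of the other groups where 1 library is left out.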
